A study of Mus musculus with 12 samples.

Results

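The genes described here are Id1, Id2, Id3 and Id4, the bone morphogenetic protein (BMP) ligand genes Bmp2 and Bmp4, and Smad6, Smad7 and Grem1, whose products restrain BMP signalling. They were taken as every probe set that the platform annotation gives to 1 of these symbols alone, which are 14 probe sets for 9 genes among 45037 probe sets and 18193 genes on the array. Id4 was chosen by its low signal in wild-type cells after 4 h of interleukin-1 beta, so its wild-type values are a description without a test; the others were put beside it as family members or as parts of the BMP pathway. RNA came from embryonic fibroblasts of mice, cultured in DMEM with fetal calf serum, that were wild type or carried IRAK4 in a kinase-dead form. IRAK4 is the protein kinase that joins the interleukin-1 receptor complex through the adaptor MyD88. Cells of each genotype were left unstimulated for 4 h, or received 1 ng/ml interleukin-1 beta (IL-1b) for 1 h or 4 h, with 2 arrays in each of 6 groups and 12 in all. The same unstimulated arrays are the control for both times, and at 1 h they also differ from the stimulated cells in time of culture. The labels do not name the kinase-dead allele or separate animals or cultures behind the replicates, so p-values measure the spread between these samples, which may be technical.

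BMP ligands bind paired receptor kinases that phosphorylate Smad1, Smad5 and the related Smad of the same class, and these enter the nucleus with Smad4. The Id genes are classical direct targets of this pathway: their products are helix-loop-helix proteins without a DNA-binding basic region, which pair with basic helix-loop-helix factors and keep them off DNA. Smad6 and Smad7 are induced by the pathway and block its receptors from within, while Grem1 encodes gremlin, a secreted protein that binds and traps BMP ligands. In mesenchymal cells these genes are known for their part in the choice between growth, cartilage, bone and fat.

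Promoter sequence from RefSeq (GRCm38.p6) was held for 6 of the 9 genes, namely Id2, Id3, Id4, Bmp4, Smad6 and Grem1. The 250 bases that precede the annotated start are shown for Id4, Id2 and Bmp4, the 3 members on which the results at 4 h mainly turn, at chr13:48260866-48261115 (forward strand), chr12:25096093-25096342 (reverse strand) and chr14:46390670-46390919 (reverse strand). Each is written 5′ to 3′ along the gene, and capitals mark GGCGCC, a palindrome known as a binding element of BMP-activated Smads.
Id4: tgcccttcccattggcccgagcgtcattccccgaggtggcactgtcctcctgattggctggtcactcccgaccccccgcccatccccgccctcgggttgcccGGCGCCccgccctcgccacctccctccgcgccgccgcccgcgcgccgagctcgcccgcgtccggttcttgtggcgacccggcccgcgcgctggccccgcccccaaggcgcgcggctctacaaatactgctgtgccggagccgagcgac
Id2: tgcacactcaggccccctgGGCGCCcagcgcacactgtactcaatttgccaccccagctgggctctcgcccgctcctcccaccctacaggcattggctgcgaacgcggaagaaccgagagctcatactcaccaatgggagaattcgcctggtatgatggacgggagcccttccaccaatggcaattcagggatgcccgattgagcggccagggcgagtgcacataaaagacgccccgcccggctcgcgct
Bmp4: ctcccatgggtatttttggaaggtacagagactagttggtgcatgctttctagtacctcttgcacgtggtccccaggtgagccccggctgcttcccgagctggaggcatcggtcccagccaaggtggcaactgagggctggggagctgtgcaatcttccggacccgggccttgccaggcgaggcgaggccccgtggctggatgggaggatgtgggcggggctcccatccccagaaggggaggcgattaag
The Id4 window was 75.6% G and C, the Id2 window 62.8% and the Bmp4 window 63.2%, against a median of 52.4% over 32851 promoter windows of the same length. GGCGCC lay in 3 of the 6 members' windows (Id2, Id4 and Grem1), and in 9.59% of all windows on either strand. The element holds only G and C, the Grem1 window was 72% G and C, and the 9.59% is over windows not matched for composition. No excess of the element in the members can be read from these shares. The shorter Smad element CAGAC, on either strand, was in 2 of the 6 and in 42.2% of all windows. The E-box CANNTG, the site of basic helix-loop-helix factors, was in 2 of the 6 and in 66.2%. Neither the NF-kB consensus, searched on both strands and present in 7.25% of all windows, nor TATAAA on the forward strand, present in 7.59%, was found in the 6. These are matches of letters in a short window and not measured sites.

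All arrays had the same trimmed mean signal of 150, and array medians lay between 23 and 28.3 signal units. All 11 fibroblast markers passed the filter on low signals, with summed signals of 31171.6 to 36953 on every array. Such sums can hide single markers. Without stimulation 3 of the 11 were called lower in kinase-dead cells, against 6.96% of all genes, and 0 higher. Among the 3 was Pdgfra, with mean signals of 583.5 in wild-type and 131.85 in kinase-dead cells. Summed markers of endothelial, muscle and epithelial cells were at 64.6 to 199.6. The Irak4 transcript cannot check a kinase-dead label and is not used here. Of 8 known IL-1b responsive genes, 7 were called higher in wild-type cells at 1 h and 8 at 4 h, against 4 and 6 in kinase-dead cells. Their median log2 fold change at 4 h was 5.3 in wild-type and 1.48 in kinase-dead cells. The kinase-dead response was called lower than the wild-type response for 6 of the 8 at 1 h and 7 at 4 h. Over all genes these shares were 0.345% and 1.57%. Summed signals of 12 macrophage markers, of which 9 passed the filter, were 288.9 to 316 on the wild-type arrays and 631.1 to 704.8 on the kinase-dead arrays. The actin 3′ to 5′ ratio, a sign of RNA quality, had group means of 2.36 to 2.49, except for a mean of 2.85 where kinase-dead cells were unstimulated. Arrays of a group could differ as well. The ratio was 2.68 and 2.14 on the unstimulated wild-type arrays, and 2.58 and 2.15 on the wild-type 4 h arrays. Whether these differences in markers and actin ratio had a part in the genotype results was not tested.

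Id4, an inhibitor of helix-loop-helix factors with known roles in neural and bone-forming cells, stood far lower at 4 h in wild-type cells than in any other group. Its brightest probe set read 540.1 and 665 signal units on the unstimulated wild-type arrays, 580.2 and 625.7 at 1 h, and 91.8 and 127.9 at 4 h. Kinase-dead cells gave 778 and 761.6 unstimulated, 795.5 and 821.6 at 1 h, and 626.9 and 652.4 at 4 h. Both wild-type 4 h arrays lay below the other 10, while the unstimulated and 1 h wild-type arrays overlapped each other. The mean at 4 h was 18.2% of the unstimulated mean in wild-type cells and 83.1% in kinase-dead cells. On the log2(signal + 8) scale the wild-type difference was -2.38 ± 0.14 (SE, n = 2 against 2), the lowest of 12456 genes, a rank that the choice of the gene already used. In RNA from whole cultures, fewer cells of a type that expresses a gene and less of its RNA per cell cannot be told apart.

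The 2 other Id4 probe sets, which measure the same gene and are no replicates of a condition, were lowest at 4 h in wild-type cells too. The first read 106.9 and 160.4 unstimulated against 41.9 and 26.4 at 4 h, or 25.6% of the unstimulated mean, and it kept the wild-type 4 h arrays apart from all others. The dimmer one read 37.9 and 66.2 against 12.4 and 20.2, or 31.3%, and there the higher wild-type 4 h array overlapped a kinase-dead 4 h array of 19.1. In kinase-dead cells, whose arrays were not used to choose the gene, limma did not call Id4 at 4 h (-0.26 ± 0.14, adjusted p = 0.42), and the 95% interval of the difference ran from -0.55 to 0.03. The kinase-dead arrays at 1 h gave 0.07 ± 0.14 (adjusted p = 0.869). The genotypes' responses at 4 h differed by 2.12 ± 0.19, which is given without a test because it contains the wild-type difference.

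**Figure D1:**
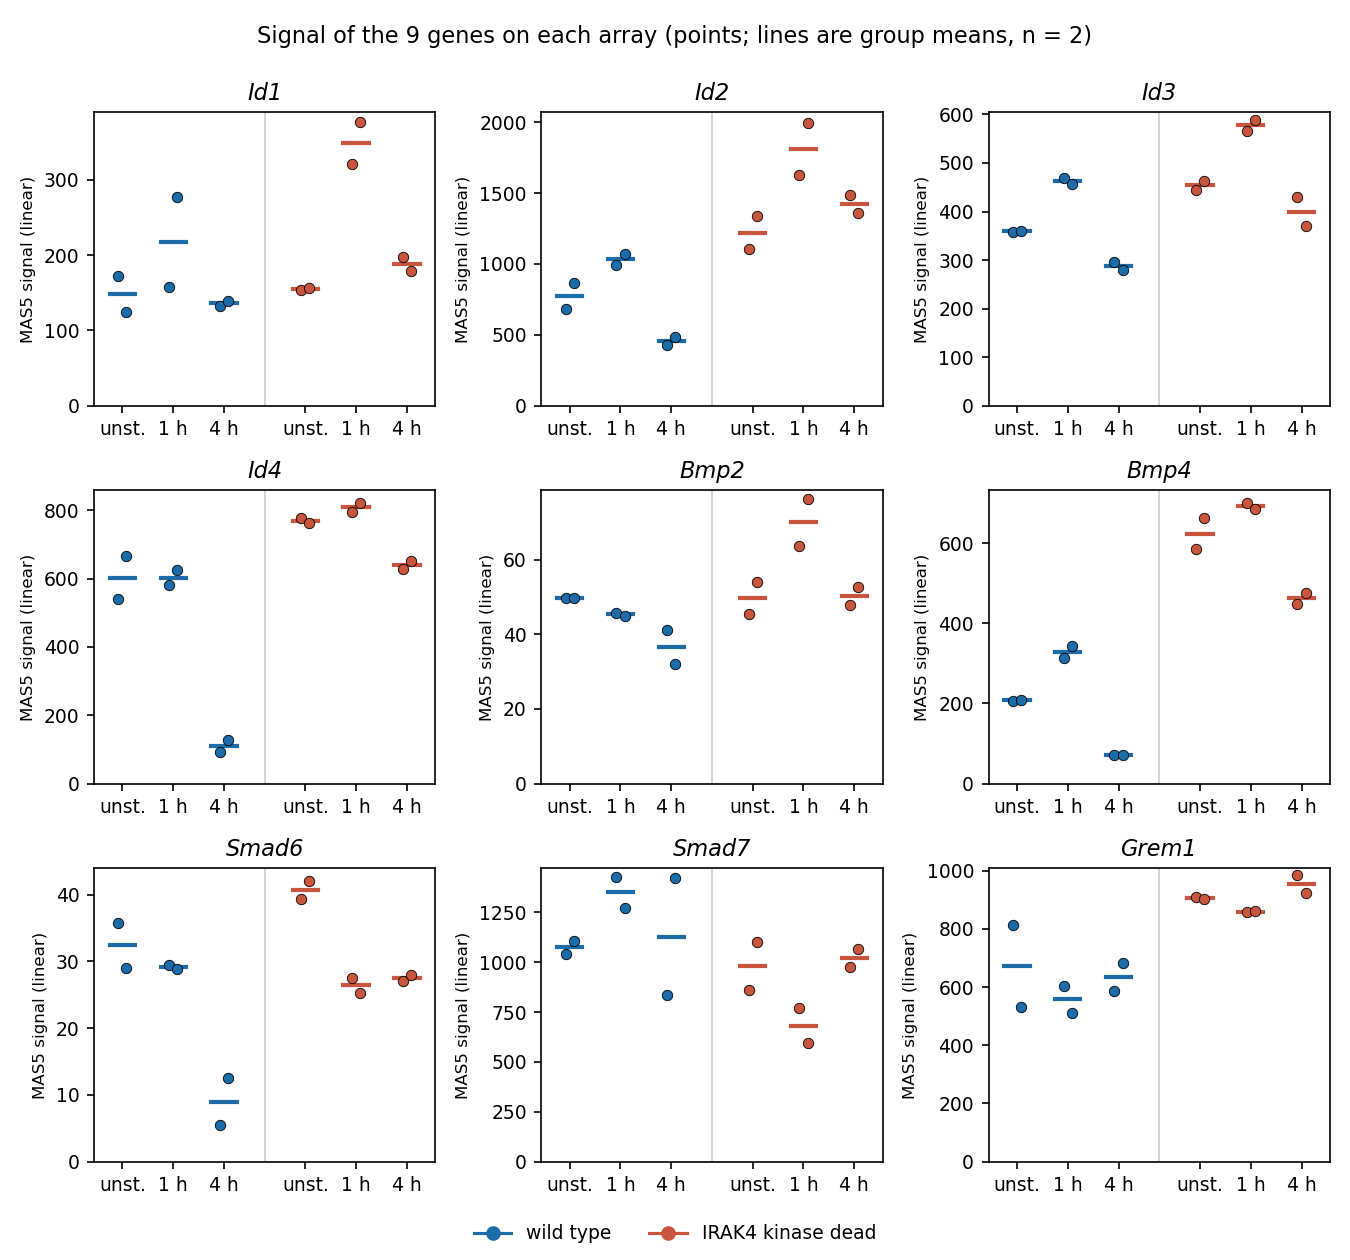
Signal of 1 probe set per gene (the one with the highest mean) on each of the 12 arrays, in signal units on a linear axis from 0, by genotype and condition (unst., unstimulated); points are arrays and short lines are group means of 2 arrays. Id4 and Bmp4 are lowest on the wild-type 4 h arrays (91.8 and 127.9 for Id4, 71.2 and 71.8 for Bmp4), and all 6 kinase-dead arrays are above all 6 wild-type arrays for Id2, Bmp4 and Grem1.

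Among the other tested genes, those whose log2 signals followed Id4 most closely over the 12 arrays were Tmem19 (Pearson r = 0.983), Zfp503 (0.981), Plin2 (0.966), Ncoa1 (0.965) and Aldh5a1 (0.963). Zfp503 encodes a zinc finger repressor, Plin2 a coat protein of lipid droplets, Ncoa1 a coactivator of nuclear receptors and Aldh5a1 succinate semialdehyde dehydrogenase. Mean signals in wild-type cells went from 440 unstimulated to 182.8 at 4 h for Zfp503 and from 366.3 to 189.9 for Plin2. The corresponding kinase-dead means were 451.1 and 446.7 for Zfp503, and 469.4 and 384.8 for Plin2. These genes were picked for their likeness, and the arrays share their groups and replicates, so the correlations only describe the pattern. Over the same 12 arrays Id4 correlated with its fellow members Bmp4 and Smad6 at 0.91 each and with Id2 at 0.86.

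Id2, the family member known for roles in lymphoid, fat and mammary cells, fell at 4 h in wild-type cells and was higher in kinase-dead than in wild-type cells without stimulation. Its main probe set read 684.4 and 866.4 unstimulated, 994.5 and 1072.5 at 1 h, and 425.7 and 483.6 at 4 h in wild-type cells. In kinase-dead cells it read 1104.3 and 1339.3, then 1626.7 and 1991.9, then 1485.7 and 1361.5. No wild-type array reached the lowest kinase-dead array, and the wild-type 4 h arrays were lowest of all. At 4 h it fell by 0.75 ± 0.13 from the unstimulated level (adjusted p = 0.000933, limma), while kinase-dead cells gave 0.22 ± 0.13 (adjusted p = 0.481). The difference between these responses was 0.98 ± 0.19 (adjusted p = 0.00549).

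At 1 h Id2 rose in kinase-dead cells by 0.56 ± 0.13 (adjusted p = 0.0262) and gave 0.42 ± 0.13 in wild-type cells (adjusted p = 0.0615), and the difference of 0.14 ± 0.19 was not called (adjusted p = 0.894). The wild-type value was 0.59 and called without unstimulated replicate 2 (adjusted p = 0.0128), and 0.25 without replicate 1 (adjusted p = 0.309). The kinase-dead call at 1 h ended without either unstimulated kinase-dead array or without replicate 2 at 1 h (adjusted p = 0.186, 0.053 and 0.27). A further Id2 probe set, which reads alternative transcripts as the main one does, gave 139.7 and 191.5 unstimulated and 91.6 and 111.3 at 4 h in wild-type cells. In a fit over all 27086 probe sets it was called lower at 4 h (-0.66 ± 0.17, adjusted p = 0.0265) and higher in unstimulated kinase-dead cells (0.65 ± 0.17, adjusted p = 0.0203). Its response difference at 4 h, 0.71 ± 0.24, was not called (adjusted p = 0.18). The remaining Id2 probe set read 0.6 to 18 on all arrays and did not pass the filter.

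Id3 and Id1, broadly expressed and prompt BMP targets, were highest at 1 h in kinase-dead cells. Id3 read 357.6 and 360.6 unstimulated, 469.4 and 456.3 at 1 h, and 295.2 and 278.9 at 4 h in wild-type cells, and 445 and 463.6, 566 and 588.8, and 429.5 and 370 in kinase-dead cells. Within each genotype the 3 conditions did not overlap for Id3, with 1 h highest and 4 h lowest. The values at 1 h against unstimulated were 0.36 ± 0.11 in wild-type and 0.34 ± 0.11 in kinase-dead cells, neither of which was called (adjusted p = 0.0607 and 0.115). From 1 h to 4 h Id3 fell by 0.67 ± 0.11 in wild-type cells (adjusted p = 0.000358) and by 0.53 ± 0.11 in kinase-dead cells (adjusted p = 0.0129). The kinase-dead fall was not called without either 1 h array or without replicate 2 at 4 h (adjusted p = 0.0836, 0.106 and 0.185).

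Id1 read 172.1 and 123.9 unstimulated, 157.3 and 277.4 at 1 h, and 132.8 and 138.7 at 4 h in wild-type cells. In kinase-dead cells it read 154 and 156.9, 321 and 377.2, and 197.6 and 179.3. Both kinase-dead 1 h arrays stood above all others, whereas the wild-type 1 h arrays lay far apart and overlapped the unstimulated ones. The kinase-dead rise at 1 h was 1.12 ± 0.21 (adjusted p = 0.00731), and it was not called without replicate 2 of the unstimulated or of the 1 h cells (adjusted p = 0.0622 and 0.0936). Wild-type cells gave 0.49 ± 0.21 (adjusted p = 0.177), which became 0.89 (adjusted p = 0.0208) without replicate 1 at 1 h and 0.10 (adjusted p = 0.872) without replicate 2. The difference between the genotypes' responses, 0.63 ± 0.29, was not called (adjusted p = 0.587). From 1 h to 4 h Id1 fell by 0.86 ± 0.21 in kinase-dead cells (adjusted p = 0.0282), a call that ended without any 1 of the 4 arrays compared (adjusted p = 0.0987 to 0.21).

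The genes closest to Id1 over the 12 arrays were Csnk2a1 (Pearson r = 0.915), Brd8 (0.908), C330018D20Rik (0.903), Nktr (0.899) and Tspan31 (0.897). Csnk2a1 encodes a catalytic subunit of casein kinase 2, and its mean signal was 1349.5 in kinase-dead cells at 1 h against 1016 unstimulated. Nktr, a cyclophilin-related gene, read 378.9 and 228.2 in the same groups.

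Bmp4, a ligand that acts on the receptors upstream of the Id genes, rose at 1 h and fell at 4 h in wild-type cells, and was higher in kinase-dead cells without stimulation. The unstimulated wild-type arrays read 206.8 and 209.3, the 1 h arrays 312.6 and 343.5, and the 4 h arrays 71.2 and 71.8. The kinase-dead arrays read 584 and 661.6, then 700 and 685.4, then 449 and 476.5. No 2 of the 6 groups overlapped, and the lowest kinase-dead array exceeded the highest wild-type array. The wild-type rise at 1 h was 0.64 ± 0.12 (adjusted p = 0.00261), the value at 4 h was -1.44 ± 0.12 (adjusted p = 2.36e-07), and from 1 h to 4 h the gene fell by 2.08 ± 0.12 (adjusted p = 6.02e-09).

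Kinase-dead cells gave 0.15 ± 0.12 for Bmp4 at 1 h (adjusted p = 0.561) and -0.42 ± 0.12 at 4 h (adjusted p = 0.12). The difference between the responses was 1.02 ± 0.17 at 4 h (adjusted p = 0.00172) and -0.48 ± 0.17 at 1 h, where it was not called (adjusted p = 0.37). Bmp4 fell by 0.57 ± 0.12 from 1 h to 4 h in kinase-dead cells (adjusted p = 0.011), and this call too ended without any 1 of the 4 arrays compared (adjusted p = 0.0717 to 0.104). Without stimulation the genotypes differed by 1.54 ± 0.12 (adjusted p = 9.21e-08), which is 2.91-fold.

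Bmp2, the other ligand, was dim on all arrays, and limma called it in none of the 10 comparisons. It read 49.7 and 49.6, 45.6 and 45, and 41.2 and 32 in wild-type cells, and 45.3 and 53.9, 63.7 and 76.3, and 47.9 and 52.7 in kinase-dead cells, in the order unstimulated, 1 h and 4 h. The kinase-dead 1 h arrays were highest and the wild-type 4 h arrays lowest. The value at 4 h in wild-type cells was -0.38 ± 0.23 (adjusted p = 0.316) and that at 1 h in kinase-dead cells was 0.44 ± 0.23 (adjusted p = 0.361). Between genotypes, averaged over the 3 conditions, it gave 0.31 ± 0.13 (adjusted p = 0.087).

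**Figure D2:**
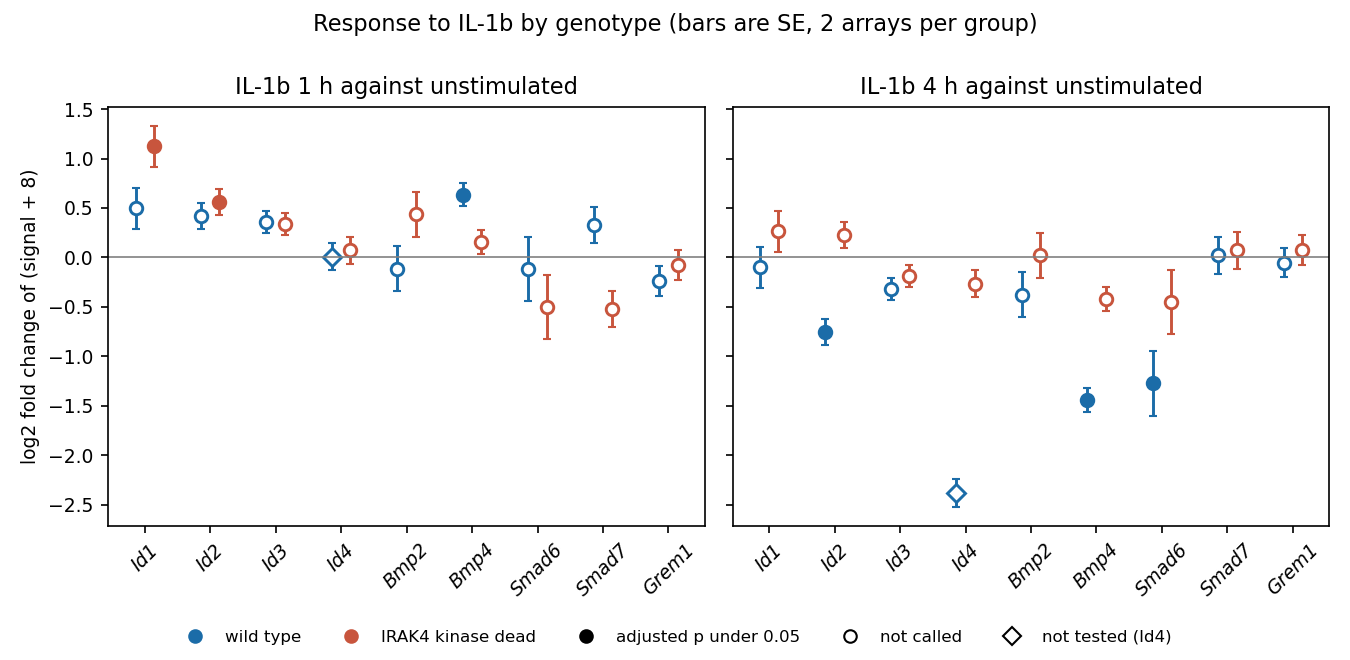
Log2 fold change of (signal + 8) with its SE for each of the 9 genes after 1 h and 4 h of IL-1b against unstimulated cells, by genotype (2 arrays per group); filled points passed an adjusted p under 0.05, open circles did not, and diamonds (Id4 in wild-type cells) were not tested. At 4 h the wild-type values of Id4 (-2.38), Bmp4 (-1.44), Smad6 (-1.27) and Id2 (-0.75) lie below the kinase-dead values of -0.26, -0.42, -0.45 and 0.22.

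Smad6, the inhibitory Smad most closely tied to BMP receptors, was low throughout and lowest at 4 h in wild-type cells. The wild-type arrays read 35.8 and 29 unstimulated, 29.4 and 28.9 at 1 h, and 5.5 and 12.5 at 4 h. Kinase-dead cells gave 39.3 and 42.1, 27.5 and 25.3, and 27.1 and 28. The wild-type 4 h arrays lay below the other 10 and below the filter's 25.5 signal units. Smad6 fell in wild-type cells by 1.27 ± 0.32 at 4 h (adjusted p = 0.0157), and by 1.16 ± 0.32 from 1 h to 4 h (adjusted p = 0.0183). At such low signals the size depends on the pseudocount: with 1 or 32 in place of 8 the 4 h value was -1.83 or -0.65, and the value from 1 h to 4 h was -1.69 or -0.58, all still called. The 4 h call ended without unstimulated replicate 1 (adjusted p = 0.0952), without 4 h replicate 1 (0.107) and when the 2 groups were fitted alone (0.14); the fall from 1 h ended without either 1 h array, without 4 h replicate 1 or with the 2 groups alone (adjusted p = 0.0838 to 0.13). Kinase-dead cells gave -0.45 ± 0.32 at 4 h (adjusted p = 0.59), and the difference between the responses, 0.82 ± 0.46, was not called (adjusted p = 0.389).

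Smad7, which blocks both BMP and TGF-beta receptors, was read by 2 probe sets that did not move alike. The brighter is of a kind whose probes can match other sequences, and it read 1043.4 and 1105.9 unstimulated, 1429.1 and 1271.9 at 1 h, and 835.8 and 1420.6 at 4 h in wild-type cells. In kinase-dead cells it read 860.2 and 1099.6, 768 and 592.5, and 976.1 and 1069. The wild-type 4 h arrays spanned nearly the whole wild-type range, and the kinase-dead 1 h arrays were lowest. This probe set was called in neither genotype at 1 h (0.33 ± 0.18, adjusted p = 0.327, and -0.52 ± 0.18, adjusted p = 0.143). The kinase-dead value was called when the 2 groups were fitted alone (adjusted p = 0.0386). It also just passed without wild-type 4 h replicate 1, which enters only through the shared estimate of spread.

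The other Smad7 probe set read 634.9 and 771.5, 1150.4 and 1108, and 841.3 and 854.4 in wild-type cells. In kinase-dead cells it read 740.6 and 570.7, 805.7 and 1006.5, and 936.2 and 761. Both wild-type 1 h arrays were above all the rest. In the fit over all probe sets this one rose at 1 h in wild-type cells by 0.68 ± 0.14 (adjusted p = 0.00643) and gave 0.47 ± 0.14 in kinase-dead cells (adjusted p = 0.0976), where the sign is opposite to that of the brighter probe set. No direction can be given for Smad7 in kinase-dead cells at 1 h.

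**Figure D3:**
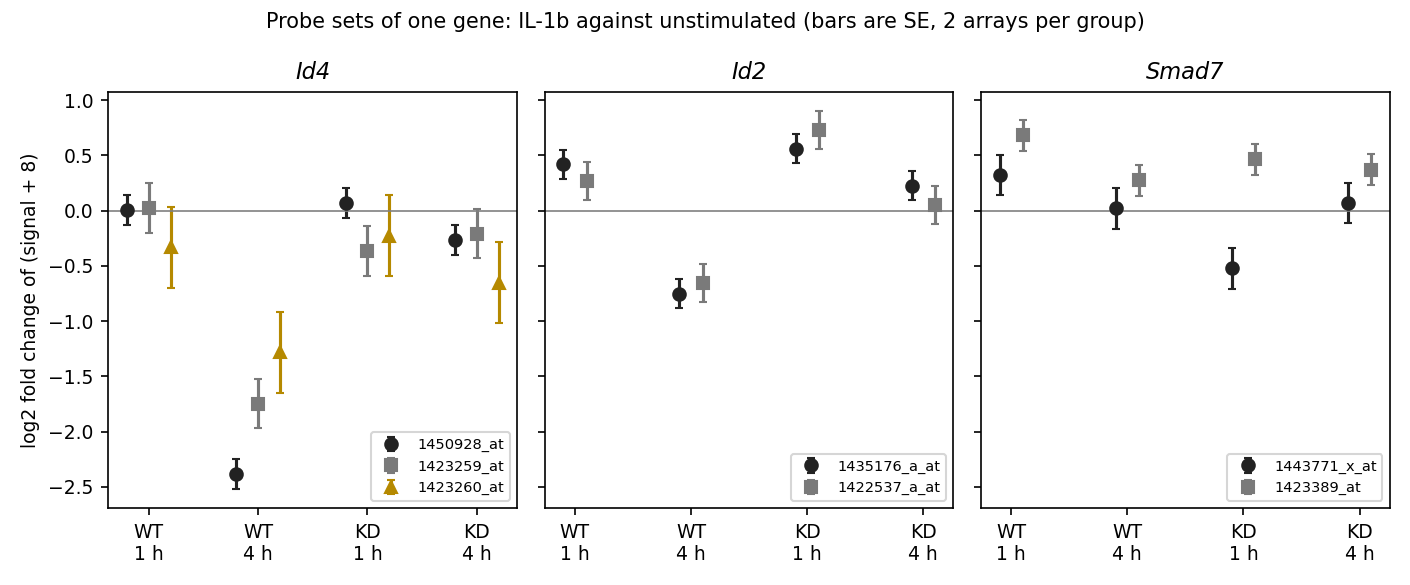
Log2 fold change of (signal + 8) with its SE for each probe set of Id2, Id4 and Smad7 that passed the filter, by genotype and time against unstimulated cells (2 arrays per group). The 3 Id4 probe sets share a low wild-type value at 4 h (-2.38, -1.75 and -1.28), whereas the 2 Smad7 probe sets have opposite signs in kinase-dead cells at 1 h (-0.52 and 0.47).

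Grem1 was not called after IL-1b in either genotype, and it was higher in kinase-dead cells. It read 812.3 and 530.6 unstimulated, 603.7 and 512.5 at 1 h, and 587.1 and 683.2 at 4 h in wild-type cells, against 909.1 and 904.1, 856.9 and 861.4, and 984.8 and 923.3 in kinase-dead cells. No wild-type array reached a kinase-dead one, and the unstimulated wild-type arrays lay farthest apart. At 1 h the wild-type value was -0.24 ± 0.15 (adjusted p = 0.392), which became -0.54 (adjusted p = 0.0108) without unstimulated replicate 2 and turned to 0.07, with no call, without unstimulated replicate 1. At 4 h the values were -0.05 ± 0.15 (adjusted p = 0.867) in wild-type and 0.07 ± 0.15 (adjusted p = 0.883) in kinase-dead cells. The unstimulated difference between genotypes was 0.46 ± 0.15 (adjusted p = 0.0499), and it was called under 5 of 22 other settings; without wild-type unstimulated replicate 2 it was 0.16 (adjusted p = 0.491) and without replicate 1 it was 0.76 (adjusted p = 0.000384).

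Counted over the members, 1 of the 8 tested in wild-type cells passed at 1 h (Bmp4, higher), where 7.47% of all 12456 tested genes passed. At 4 h in wild-type cells 3 of 8 passed (Id2, Bmp4 and Smad6, all lower) against 12.1% of all genes, and the members' median without Id4 was -0.35 against -0.12 for all genes. From 1 h to 4 h 4 of 8 passed (Id2, Id3, Bmp4 and Smad6, all lower) against 19% of all genes. In kinase-dead cells all 9 could be tested: 2 passed at 1 h (Id1 and Id2, higher) against 3.27% of all genes, and 3 from 1 h to 4 h (Id1, Id3 and Bmp4, lower) against 4.08%. By limma 0 of 9 passed at 4 h in kinase-dead cells, where 0.618% of all genes passed, and 1 of the 9 had an unadjusted p under 0.05. The response difference was called for 0 of 8 at 1 h (0.49% of all genes; 3 of 8 at an unadjusted p under 0.05) and for 2 of 8 at 4 h (Id2 and Bmp4; 3.03% of all genes). The members were chosen with such results known, so these counts describe them and support nothing further.

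Between genotypes without stimulation 3 of 8 tested members passed (Id2, Bmp4 and Grem1, higher in kinase-dead cells), against 14.3% of all genes. Averaged over the 3 conditions, a comparison added after the data were seen, 6 of 8 passed, where 31.8% of all genes did. Id1 (0.42 ± 0.12, adjusted p = 0.0135), Id2 (1.03 ± 0.08, 9.94e-09), Id3 (0.37 ± 0.06, 0.000237), Bmp4 (1.72 ± 0.07, 3.12e-12) and Grem1 (0.55 ± 0.09, 8.09e-05) were higher in kinase-dead cells. Smad7 was lower by its brighter probe set (-0.41 ± 0.11, adjusted p = 0.00674), but its other probe set gave -0.15 ± 0.08 (adjusted p = 0.218). The labels name no separate animals or cultures, so in all these comparisons genotype cannot be told apart from a difference between cultures. Macrophage markers were called higher in kinase-dead cells as well, for 6 of 9 tested over the 3 conditions and 4 of 9 without stimulation. Of all genes 18.2% and 7.38% were called higher in these comparisons. The part of the macrophage markers in the genotype differences was not tested. Neural markers, a setting in which Id genes are well known, summed to 487.6 to 552.8 on the wild-type 4 h arrays. The sums were 613.2 to 683.3 on the other wild-type arrays and 749.4 to 887.4 on the kinase-dead arrays. Single neural markers differed between genotypes in both directions. Over the 3 conditions limma called 3 of 8 higher in kinase-dead cells and 2 lower, with a list median of 0.11. Without stimulation it called 2 higher and 1 lower, with a median of 0.03. The wild-type response after 4 h had 1 neural marker called lower and 0 higher. Its list median was -0.05, against -0.12 for all genes. Cartilage and bone markers summed to 1084.8 to 1099.4 unstimulated, 918.5 to 942.9 at 1 h and 564.9 to 655 at 4 h in wild-type cells. In kinase-dead cells the sums were 981 to 1030.4, 848.4 to 914.6 and 870.6 to 898.9 in the same order. At 4 h 2 of 6 tested markers were called lower in wild-type cells, against 7.39% of all genes. In kinase-dead cells 0 of 6 were (2 at an unadjusted p under 0.05), against 0.177%. The part of either list in the results was not tested.

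In the wider BMP pathway, the counts at 4 h in wild-type cells stand beside 4.66% of all genes called higher and 7.39% called lower, and lists this short can show 0 calls at such shares. These lists include members: Bmp2 and Bmp4 among the ligands, Grem1 among the antagonists, and Smad6 and Smad7 among the inhibitors. Their counts and medians therefore partly repeat the members. Of 4 tested BMP ligand genes 2 were lower, Bmp4 and Bmp5 (-0.61 ± 0.18, adjusted p = 0.0362). The list median was -0.49 against -0.12 for all genes. Among the 4 was also Gdf2, with group mean signals of only 5.75 to 28.85. By limma 0 of 8 receptor and coreceptor genes passed (2 at an unadjusted p under 0.05), and their median was -0.07. Among 5 Smad signal transducers 1 was called, Smad1 (0.27 ± 0.08, adjusted p = 0.04). Of 12 extracellular antagonists 2 were higher, Fst (0.28 ± 0.08), which encodes follistatin, and Fstl1 (0.24 ± 0.07), and Fstl3 was lower (-0.68 ± 0.12). Of 10 intracellular and membrane inhibitors Skil was higher (0.34 ± 0.07), and Smad6, Ski (-0.43 ± 0.09) and Tob1 (-0.41 ± 0.12) were lower.

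Known BMP target genes, a list that includes the members Id1, Id2, Id3, Id4, Smad6 and Smad7, did not move one way. Of 13 tested without Id4, 5 were lower at 4 h in wild-type cells and 1 was higher. Among the 5 were Smad6, Id2, Hey1 (-0.99 ± 0.20, adjusted p = 0.00367) and Dlx5 (-1.07 ± 0.34, adjusted p = 0.0485). Dlx5 was dim, with mean signals of 36.75 unstimulated and 14.3 at 4 h, the latter below the filter's 25.5 signal units. The 1 higher gene was Tbx3, which encodes a T-box repressor. Its mean signals were 360.05 unstimulated and 1122.65 at 4 h (1.62 ± 0.12, adjusted p = 7.51e-08). Among 16 tested helix-loop-helix factors, the kind of protein that Id proteins pair with or resemble, 4 were lower and 0 higher. These were Hey2 (-1.11 ± 0.13), Hey1, the mesenchymal factor Twist1 (-0.56 ± 0.11) and the E protein gene Tcf4 (-0.35 ± 0.09), and the list median was -0.30.

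In kinase-dead cells at 4 h limma called 0 genes in each of these lists, and 0 to 3 genes of a list had an unadjusted p under 0.05. With 0.618% of all genes called there, that count says nothing particular about the lists. The responses of the genotypes at 4 h differed for Tbx3 (-1.77 ± 0.17, adjusted p = 7.94e-06), Hey1 (1.19 ± 0.29, adjusted p = 0.0298), Hey2 (0.98 ± 0.18, adjusted p = 0.0052) and Tob1 (0.74 ± 0.16, adjusted p = 0.0173). Without stimulation, the antagonist gene Chrdl1 was lower in kinase-dead cells (-2.09 ± 0.20, adjusted p = 1.2e-06), with mean signals of 214 in wild-type and 44.7 in kinase-dead cells. The receptor gene Bmpr1b was lower too (-1.34 ± 0.15, adjusted p = 5.21e-06), while Bmp5 (0.94 ± 0.18, adjusted p = 0.0016) and Bmper (0.47 ± 0.11, adjusted p = 0.00627) were higher.

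**Figure D4:**
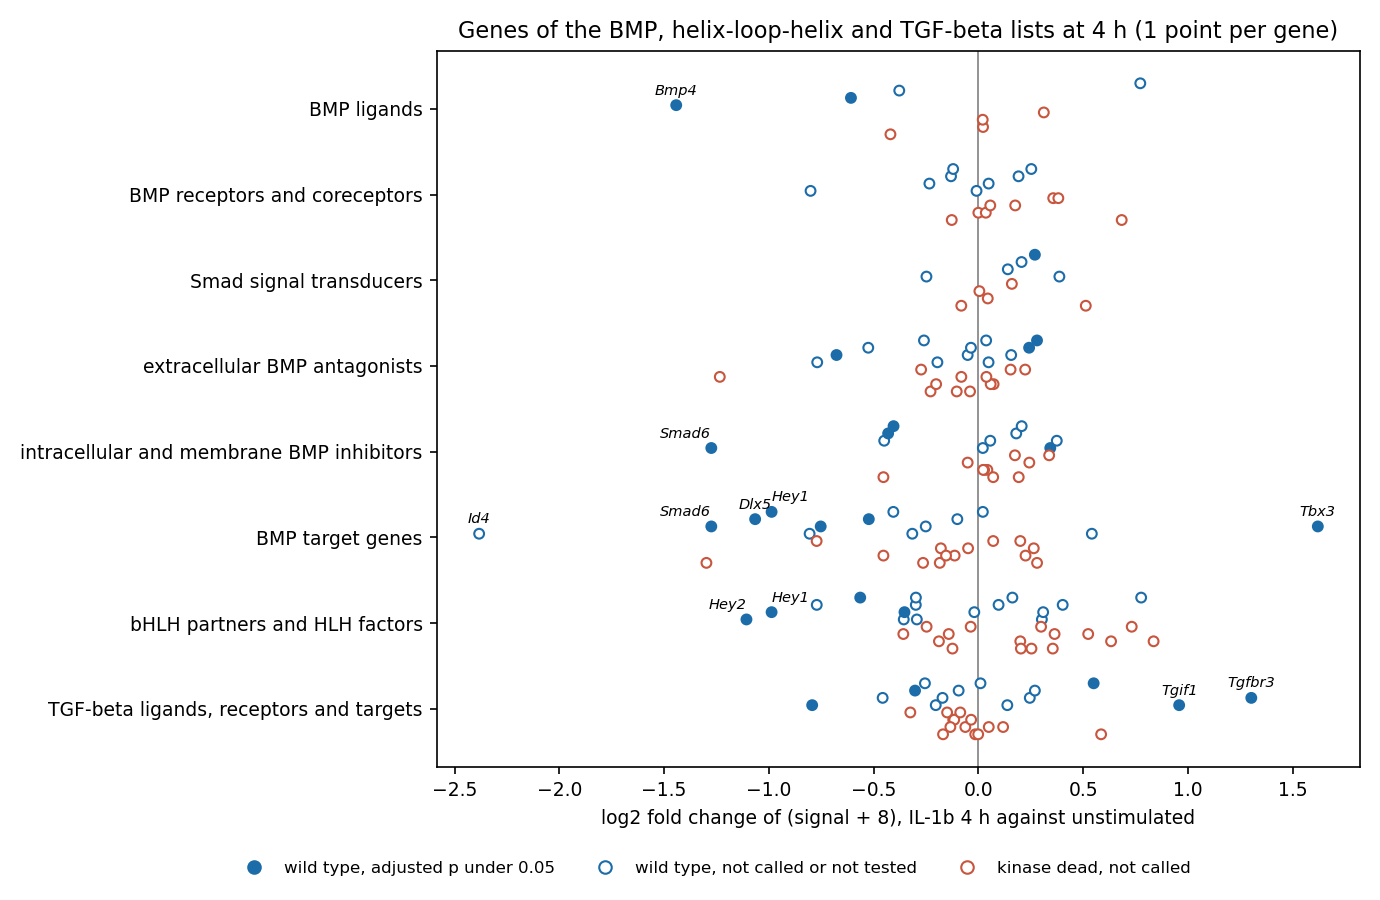
Log2 fold change of (signal + 8) after 4 h of IL-1b for each gene of the BMP, helix-loop-helix and TGF-beta lists, 1 point per gene and genotype; filled points passed an adjusted p under 0.05, and called genes past 0.9 in either direction and Id4 are named. Filled wild-type points reach from Bmp4 (-1.44) to Tbx3 (1.62), and no kinase-dead point is filled.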

How the data were processed

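Signals are Affymetrix Mouse Genome 430 2.0 MAS5 intensities on a linear scale, as deposited by the authors and named so in the submitters' processing notes; its version is not given in the sources. Per the labels, total RNA from RNeasy columns went through NuGEN Ovation amplification and labelling. Of 45101 probe sets 64 are controls, and 34945 carry 1 gene symbol in the platform annotation. The title of wild-type unstimulated replicate 1 omits the genotype; the series design, with 6 arrays per genotype, places it.

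Values were analysed as log2(signal + 8), which understates changes of low signals. Probe sets with 2 or more arrays at or above the overall median of 25.5 were kept, and the one with the highest mean stood for its gene (12456 genes); 13 of the members' 14 probe sets passed. limma 3.58.1 (R 4.3.3) fitted 6 group means with 6 residual degrees of freedom, with moderated two-sided tests, a variance trend and Benjamini-Hochberg adjustment over all genes within each of 10 comparisons. A call is an adjusted p under 0.05. The script was tested on simulated data. Precision is limited by the number of arrays.

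The members, the gene lists and the tests were chosen with earlier results of these data known. All 9 members are named; from other lists, up to 4 called genes per list and comparison with the largest changes, and the 5 genes most correlated with Id4 and with Id1. The text names fewer. Alternatives covered the pseudocount, filter, normalization, variance model, probe sets, groups fitted, a replicate block and leaving out each array. Figures were drawn with matplotlib 3.10.9.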

Additional observations from a re-analysis of the deposited data

Results flagged for a closer look

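Id2 and Bmp4 responded differently to 4 h of IL-1b in the 2 genotypes by a test of the difference itself in limma. The kinase-dead response exceeded the wild-type response by 0.98 ± 0.19 on the log2 scale for Id2 (adjusted p = 0.00549) and by 1.02 ± 0.17 for Bmp4 (adjusted p = 0.00172). For both genes the wild-type 4 h arrays were the lowest of the 12. The Bmp4 call held under all 22 alternatives and the Id2 call under 21 of 22, and the second Id2 probe set gave 0.71 ± 0.24 without a call (adjusted p = 0.18).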

How the results depend on the processing

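Over 22 alternatives no called value of a member changed sign. The count of called members in wild-type cells at 1 h was 1, and it became 2 with a filter at 100, 3 with median centring, 2 with the replicate block, 2 with Smad7 read by its other probe set (an alternative chosen after seeing the data) and 1 to 3 when each array was left out in turn. In kinase-dead cells at 1 h it was 2, and it became 1 without a filter, 0 without the variance trend, 3 with the 2 groups alone and 0 to 3 with each array left out. From 1 h to 4 h in kinase-dead cells it was 3, and it became 2 without a filter, 0 without the variance trend, 6 with the 2 groups alone and 0 to 4 with each array left out. For the response difference at 4 h it was 2, and it became 1 without the variance trend. Without stimulation the count between genotypes was 3 and ranged from 2 to 4, and Grem1 lost its call in 17 of 22 alternatives. Counting each value under each alternative as 1 refit, 51 of 1970 refits lost a call and 25 gained one. Of the 51, 17 were the unstimulated Grem1 value. The cause was not tested. Replicate numbers did not pair the samples: correlations of same-numbered deviations were -0.0509 to 0.099 over 15 pairs of groups, with 0 over 0.1. The replicate block is kept only as 1 of the alternatives. In wild-type cells at 4 h the median of all genes was -0.12, which median centring removes; the 3 members called there kept that count. Genes of the other lists were not refitted under the alternatives.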

Other observations

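The TGF-beta arm of the family changed in both directions in wild-type cells at 4 h. Of 14 tested ligand, receptor and target genes 3 were higher and 2 lower, where 4.66% of all genes were higher and 7.39% lower. Tgfbr3, which encodes the coreceptor betaglycan, rose from a mean signal of 196.3 to 480.55 (1.30 ± 0.20, adjusted p = 0.000358 by limma), and Tgif1, a Smad corepressor gene, rose by 0.96 ± 0.15 (adjusted p = 0.000364). Inhba, the activin A subunit gene, was higher by 0.55 ± 0.14 (adjusted p = 0.0176), and Tgfb3 was lower (-0.79 ± 0.11, adjusted p = 9.54e-05). In kinase-dead cells limma called 0 of the 14 at 4 h (2 at an unadjusted p under 0.05), where 0.618% of all genes were called. The responses at 4 h differed for Tgfbr3 (-1.25 ± 0.29, adjusted p = 0.0231) and Tgfb3 (0.62 ± 0.16, adjusted p = 0.035). Without stimulation 5 of the 14 were lower in kinase-dead cells, as were 6.96% of all genes, among them Inhbb (-1.03 ± 0.17), Inhba (-0.82 ± 0.14) and the receptor gene Tgfbr2 (-0.75 ± 0.09).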
